A study of Rattus norvegicus with 10 samples.

Results

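The adipocyte secreted factors are 5 genes whose proteins fat cells release into the blood or the surrounding tissue: Lep, Retn, Cfd, Agt and Angptl4. Members were the probe sets whose only gene symbol in the platform annotation is one of these names. Such probe sets were found for 4 of the 5 genes, 1 probe set each, out of 15866 probe sets and 10411 genes named singly on the array. No probe set of the annotation used here has Retn as its only gene name, so resistin has no value. Whole mammary glands were taken at postnatal day 21, around weaning, from female SD rats. In the soy group, exposure from gestation day 4 until weaning was to the purified rodent diet AIN-93G with soy protein isolate. In the casein group the same diet held casein in its place. Each diet had 5 arrays, and the number in an array's name is that of its label. The labels speak of RNA pools and replicate cRNA targets, so arrays may not be separate animals, and n counts arrays here.

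White fat makes up most of the volume of the mammary gland before puberty, and the epithelial ducts grow into it. Leptin, the product of Lep, is a hormone that reports the amount of stored fat to the brain and acts through the receptor Lepr. Complement factor D, or adipsin, from Cfd, is the serine protease that cleaves factor B in the alternative complement pathway. Angiotensinogen, from Agt, is the precursor from which renin and angiotensin-converting enzyme make angiotensin II. Angiopoietin-like 4, from Angptl4, inhibits lipoprotein lipase, the enzyme that frees fatty acids from circulating lipoproteins, and its gene is a target of PPAR receptors and is induced by fasting and glucocorticoids. Resistin, from Retn, is a cysteine-rich hormone of rodent fat cells.

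The windows from 250 bases before to 50 bases after the gene start (RefSeq, GRCr8) are shown for Lep, Angptl4 and Cfd. The source of the windows had no entry for Agt. Over the 10 arrays Pearson r was 0.78 for Lep and Angptl4, -0.0069 for Lep and Cfd and 0.13 for Cfd and Angptl4. It was also 0.78 for Cfd and Agt, a pair whose windows could not be compared. Whether r differs between these pairs was not tested. Capitals mark matches to TATAA, the core of a TATA box, and to TTGCNNAA, a form of the site bound by C/EBP factors, each searched on both strands.
Lep, chr4:58626288-58626587, plus strand: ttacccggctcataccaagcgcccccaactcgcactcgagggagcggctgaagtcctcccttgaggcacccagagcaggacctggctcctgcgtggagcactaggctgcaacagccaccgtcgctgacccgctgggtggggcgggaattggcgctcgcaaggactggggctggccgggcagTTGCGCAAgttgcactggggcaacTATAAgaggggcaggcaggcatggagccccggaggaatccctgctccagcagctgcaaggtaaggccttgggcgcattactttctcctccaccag
Angptl4, chr7:15258632-15258931, minus strand: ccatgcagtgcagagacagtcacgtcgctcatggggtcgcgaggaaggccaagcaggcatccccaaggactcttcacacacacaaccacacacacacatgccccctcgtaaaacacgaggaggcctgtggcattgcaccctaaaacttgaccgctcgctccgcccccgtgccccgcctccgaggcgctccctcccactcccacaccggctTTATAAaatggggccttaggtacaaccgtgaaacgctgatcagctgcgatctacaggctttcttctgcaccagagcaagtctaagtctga
Cfd, chr7:10465447-10465746, minus strand: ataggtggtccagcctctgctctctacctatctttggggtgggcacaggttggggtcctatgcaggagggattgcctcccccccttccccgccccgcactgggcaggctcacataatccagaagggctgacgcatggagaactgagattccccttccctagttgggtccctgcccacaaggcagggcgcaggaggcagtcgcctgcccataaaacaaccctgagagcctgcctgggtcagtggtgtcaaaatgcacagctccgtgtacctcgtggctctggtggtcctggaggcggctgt
The Lep window held TATAA with its first base 45 bases before the start. It also held TTGCGCAA, which begins 69 bases before the start and reads the same on both strands, so that it matches on each. The Angptl4 window held TATAA 39 bases before the start, and an overlapping match on the other strand that begins 40 bases before it. The Cfd window held neither. GGGCGG, a GC box, was present in each of the 3 windows, and AGGTCA, a core motif of nuclear receptor sites, in 0 of the 3. Over all 33469 windows of this length in the table, 26.2% held TATAA, 10.6% TTGCNNAA, 33.1% GGGCGG and 16.2% AGGTCA. Such matches describe the letters of the window only.

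The glands held a clear adipocyte signal in every array. Of 17 adipocyte markers, 15 had a probe set, all 15 lay above the filter used for testing (a mean log2 signal of 7.47, a signal of 177), and 0 were listed at 0. Their mean log2 signal per array, called the adipocyte marker mean here, ran from 10.97 to 11.92 in soy and from 11.18 to 11.68 in casein. It averaged 11.49 ± 0.37 in soy and 11.42 ± 0.20 in casein (SD, n = 5 each; exact two-sided permutation p = 0.71). The arrays also differed in the signal of other tissue. The mean of skeletal muscle markers (17 of 18 with a probe set, summed signal 3348 to 183394 in soy and 3705 to 166267 in casein) was highest in soy 157, casein 6, soy 149 and soy 147. The mean of lymphocyte markers (11 of 17 with a probe set, summed signal 1387 to 14439 in soy and 1680 to 11371 in casein) was lowest in soy 149 and casein 6. Brown adipocyte markers were dim, with 5 of 7, Ucp1 among them, below the filter. The log2 ratio of the 3' to the 5' actin probe set, a measure of RNA quality, averaged 0.57 ± 0.06 in soy and 0.46 ± 0.14 in casein (SD, n = 5 each; exact permutation p = 0.15).

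None of the 4 secreted factors differed between the diets beyond the spread between arrays. Lep was lower on average in soy glands, Cfd and Agt were higher, and Angptl4 was nearly equal, but the values of the diets overlapped for every factor. In limma, 0 of 4 factors had an adjusted p under 0.05, and 0 of all 9520 probe sets did (0%), while 433 (4.55%) had an unadjusted p under 0.05, none of them a member. Soy and casein values lay fully apart, with no overlap, for 0 of the 4 factors and for 76 of all tested probe sets (0.798%). In whole glands, fewer cells of a type and less RNA per cell cannot be told apart.

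The leptin probe set gave signals of 276.2, 986, 350.5, 204.1 and 412.3 in soy 147, 149, 155, 157 and 159, against 730.1, 451.5, 432.9, 359.5 and 588.8 in casein 10, 18, 20, 6 and 7. The soy arrays thus hold both the highest and the 3 lowest values of the 10, and 4 of 5 soy arrays lay below the casein mean. On the log2 scale the mean was 8.57 ± 0.86 in soy and 8.96 ± 0.40 in casein (SD, n = 5 each). The difference was -0.38 ± 0.36 (SE) on the log2 scale, or 0.767-fold, with a 95% interval of 0.445-fold to 1.32-fold (limma adjusted p = 0.99; exact permutation p = 0.38). Leaving out soy 149, the array with the most leptin signal, moved the difference to -0.73 ± 0.24 (SE; adjusted p = 0.85), and without soy 157 it was -0.16. With the muscle and lymphocyte marker means as covariates the sign turned, to 0.067 ± 0.30 (SE; adjusted p = 0.99).

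Adipsin was among the brightest probe sets of the array, at percentile 99.6 of mean level. Cfd had signals of 8262, 12631, 10835, 10950 and 12007 in soy 147, 149, 155, 157 and 159, against 8499, 10180, 12271, 8829 and 6567 in casein 10, 18, 20, 6 and 7. Of the soy arrays 4 lay above the casein mean, but casein 20 was second highest of all 10. The log2 mean was 13.40 ± 0.24 in soy and 13.15 ± 0.33 in casein (SD, n = 5 each). The difference was 0.25 ± 0.17 (SE) on the log2 scale, or 1.19-fold, with a 95% interval of 0.928-fold to 1.53-fold (limma adjusted p = 0.98; exact permutation p = 0.20). It was 0.14 without casein 7, the lowest array, 0.36 without casein 20, and 0.080 after quantile normalization.

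Angiotensinogen had signals of 869.9, 2499, 2785, 1453 and 1799 in soy 147, 149, 155, 157 and 159, against 980, 1376, 2172, 993 and 1132 in casein 10, 18, 20, 6 and 7. The lowest and the 2 highest values of Agt were in soy arrays, and casein 20 was the third. The log2 mean was 10.76 ± 0.67 in soy and 10.31 ± 0.48 in casein (SD, n = 5 each). The difference of 0.45 ± 0.31 (SE) on the log2 scale, or 1.37-fold, had a 95% interval of 0.852-fold to 2.2-fold (limma adjusted p = 0.98; exact permutation p = 0.24). Without soy 147 it was 0.70 ± 0.26 (SE; adjusted p = 0.81) and without soy 155 it was 0.28. The liver is the main source of circulating angiotensinogen, and 5 of 8 hepatocyte markers, Ttr, Fgb and Apoa1 among them, lay below the filter. The other 3 lay above it, among them Alb, with signals of 158 to 485.8 in soy and 204.2 to 801.2 in casein. The mean log2 signal of these 3 was highest in soy 149 (8.52) and casein 20 (8.50) and lowest in casein 6 (7.82). Soy 155, with the most Agt, had 8.32, and soy 147, with the least, had 8.14. The summed signal of all 8 ran from 1205 to 1507 in soy and from 969.2 to 1585 in casein, and its part in the Agt values was not tested.

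Angptl4 stood out for 1 array. Its signals were 1482, 4252, 1113, 1048 and 1358 in soy 147, 149, 155, 157 and 159, against 1437, 1812, 1369, 1250 and 1861 in casein 10, 18, 20, 6 and 7. Soy 149 was 2.29-fold above the next array, and the other soy arrays included the 2 lowest of the 10. The log2 mean was 10.63 ± 0.82 in soy and 10.58 ± 0.25 in casein (SD, n = 5 each). The difference was 0.05 ± 0.33 (SE) on the log2 scale, or 1.04-fold, with a 95% interval of 0.633-fold to 1.7-fold (limma adjusted p = 0.999; exact permutation p = 0.94). Without soy 149 it was -0.30 ± 0.15 (SE; adjusted p = 0.87) and without casein 6 it was -0.018, so its direction depended on these arrays. Soy 149 also had the highest adipocyte marker mean, 11.92, the lowest lymphocyte marker mean, 6.29, and a muscle marker mean of 12.99, the third highest. The part of these in the Angptl4 value was not tested.

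**Figure D1:**
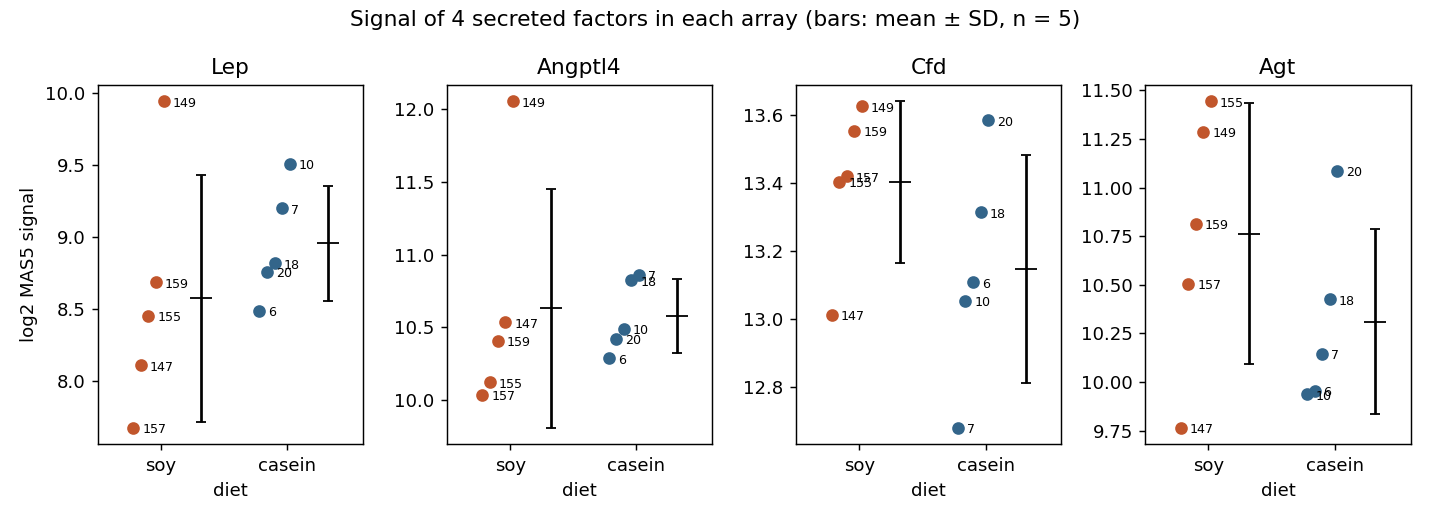
The log2 MAS5 signal of Lep, Angptl4, Cfd and Agt is plotted for each array (points, with the array number) by diet, and bars give the mean ± SD of 5 arrays. The diets overlap in all 4 panels, and soy 149 lies far above the other arrays for Angptl4 (signal 4252).

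The differences were also computed with tissue and RNA quality measures as covariates, and without the arrays with the most muscle or the least lymphocyte signal. Given in the order Lep, Angptl4, Cfd and Agt, the differences with the muscle and lymphocyte marker means as covariates were 0.067, 0.29, 0.39 and 0.79 on the log2 scale. With the adipocyte marker mean as a covariate the differences were -0.48 for Lep, -0.0088 for Angptl4, 0.21 for Cfd and 0.36 for Agt on the log2 scale. The residual SDs of Lep, Angptl4, Cfd and Agt were 0.52, 0.57, 0.20 and 0.39 with the adipocyte markers, 0.53, 0.51, 0.30 and 0.57 with the muscle and lymphocyte markers and 0.67, 0.63, 0.24 and 0.49 with the actin ratio, against 0.67, 0.61, 0.29 and 0.58 without a covariate. With the actin ratio as a covariate the differences were -0.14 for Lep, 0.21 for Angptl4, 0.069 for Cfd and 0.090 for Agt. Without the 4 muscle-rich arrays, which leaves 2 soy and 4 casein arrays, they were -0.50 ± 0.21 for Lep, -0.38 ± 0.16 for Angptl4, 0.32 ± 0.21 for Cfd and 0.73 ± 0.30 for Agt (SE). Without soy 149 and casein 6, the lymphocyte-poor arrays, they were -0.84 ± 0.23 for Lep, -0.37 ± 0.14 for Angptl4, 0.19 ± 0.18 for Cfd and 0.23 ± 0.33 for Agt (SE). An unadjusted p under 0.05 in limma was reached by Lep, Angptl4 and Agt without the muscle-rich arrays (0.043, 0.038 and 0.037), as by 8.8% of all probe sets tested there. It was reached by Lep and Angptl4 without the lymphocyte-poor arrays (0.0040 and 0.025), as by 7.21% of all, and by Agt with the muscle and lymphocyte covariates (0.032), as by 6.65% of all. The lowest adjusted p of any factor in any of these settings was 0.55 in limma.

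**Figure D2:**
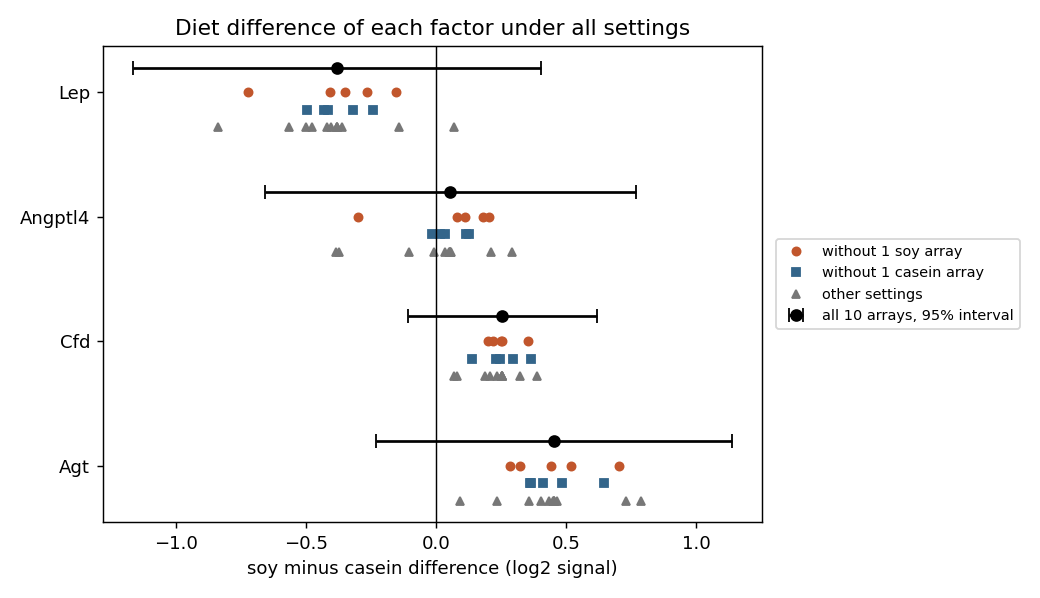
Soy minus casein differences in log2 signal are drawn for each factor, with all 10 arrays (black, 95% interval), without 1 array (coloured) and under the other settings (grey). The intervals of all 4 factors span 0, and for Angptl4 the point without soy 149 lies at -0.30.

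Lep, Angptl4 and Agt had a wide spread between arrays of the same diet, and that of Cfd was closer to the median probe set. Among all tested probe sets, the residual SD within diets lay at percentile 96.2 for Lep, 95.4 for Angptl4, 95.02 for Agt and 70.9 for Cfd, where the median probe set had an SD of 0.23 on the log2 scale. From the lowest to the highest array the signal differed 4.83-fold for Lep, 4.06-fold for Angptl4, 3.2-fold for Agt and 1.92-fold for Cfd. The SD of the soy arrays was 3.23 times that of the casein arrays for Angptl4, 2.13 times for Lep, 1.41 times for Agt and 0.709 times for Cfd, as a description of these arrays. Soy 149 was highest for Lep, Cfd and Angptl4 and second for Agt. Soy 147 was lowest for Agt and second lowest for Cfd and Lep, and had the lowest adipocyte marker mean, 10.97. Soy 157 was lowest for both Lep and Angptl4, at an adipocyte marker mean of 11.31.

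Across the 10 arrays, 2 of the 6 pairs of factors had correlated signals. Leptin and Angptl4 varied together (Pearson r = 0.78, permutation p = 0.0050, adjusted p = 0.041; Spearman rho = 0.76, permutation p = 0.015, adjusted p = 0.051). Adipsin and angiotensinogen did so as well (r = 0.78, permutation p = 0.0083, adjusted p = 0.041; rho = 0.81, permutation p = 0.0074, adjusted p = 0.051). P-values were adjusted over the 10 relations computed, which were the 6 pairs of factors and each factor with the adipocyte marker mean. The other 4 pairs had r between -0.0069, for Lep and Cfd, and 0.22, for Agt and Angptl4, with permutation p of 0.59 to 0.99. Whether r differs between pairs was not tested. Without the 2 arrays farthest from the median of the first factor, r was 0.84 for Cfd and Agt (soy 147 and casein 7 left out) and 0.42 for Lep and Angptl4 (soy 149 and soy 157 left out). Leaving out the ends of a range can lower r. For Lep the arrays left out were the highest and the lowest of the 10. For Cfd both were at the low end, and the highest, soy 149, stayed in. The values 0.84 and 0.42 thus do not compare the pairs on like terms. Without soy 149 alone r of Lep and Angptl4 was 0.63 (adjusted p = 0.17), and without soy 157 alone it was 0.76 (adjusted p = 0.042), in permutation tests. Deviations from the diet means gave r = 0.84 for Lep and Angptl4 and 0.74 for Cfd and Agt, and 5 arrays are too few for a value within a diet. With 1 array left out, r lay between 0.63 and 0.88 for Lep and Angptl4 and between 0.74 and 0.88 for Cfd and Agt. For both pairs the adjusted p was above 0.05 without soy 147, soy 149, soy 159, casein 18, casein 20 or casein 6 (6 of 10 settings), at most 0.17 without soy 149. After quantile normalization r was 0.76 for Lep and Angptl4 and 0.75 for Cfd and Agt, each with an adjusted p of 0.065.

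**Figure D3:**
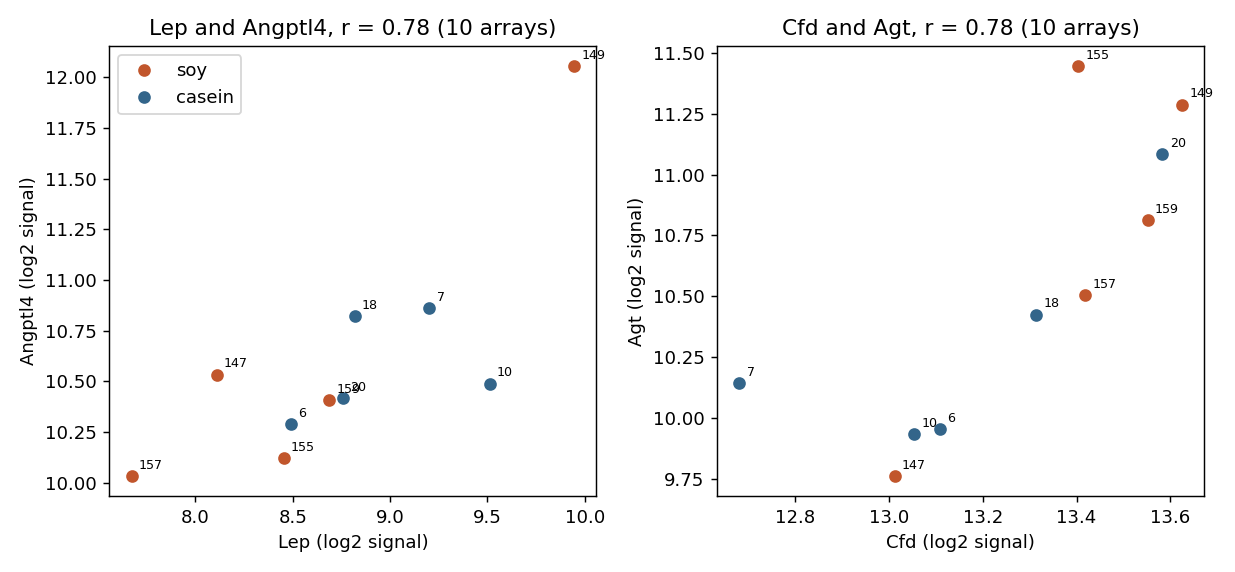
Log2 signals of Lep and Angptl4 (left) and of Cfd and Agt (right) are plotted for the 10 arrays, coloured by diet and numbered. Soy 149 lies apart at the upper right of the left panel, while the right panel holds a run of arrays from soy 147 to soy 149 with casein 7 to the left of it.

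Each factor was also set against the adipocyte marker mean, which holds none of them, and whether r differs between factors was not tested. Agt (r = 0.76, permutation p = 0.012, adjusted p = 0.041; rho = 0.68, permutation p = 0.035, adjusted p = 0.087) and Cfd (r = 0.73, permutation p = 0.018, adjusted p = 0.044; rho = 0.78, permutation p = 0.010, adjusted p = 0.051) were higher in arrays with more adipocyte signal. Lep had r = 0.61 (permutation p = 0.061, adjusted p = 0.12) and rho = 0.54 (permutation p = 0.12, adjusted p = 0.23). Angptl4 had r = 0.49 (permutation p = 0.16, adjusted p = 0.27) and rho = 0.14 (permutation p = 0.71, adjusted p = 0.87). Without soy 147 and soy 149, the arrays at the ends of the marker mean, r was 0.66 for Cfd, 0.58 for Agt, 0.22 for Lep and 0.022 for Angptl4. After quantile normalization r was 0.70 for Agt, 0.67 for Cfd and 0.67 for Lep, each with an adjusted p of 0.065. Leaving out 1 array gave r of 0.68 to 0.87 for Agt and 0.66 to 0.81 for Cfd. The adjusted p was then above 0.05 in 7 of 10 settings for each, without soy 147, soy 149, soy 159, casein 18, casein 20 or casein 6 for both, without casein 7 for Agt and without soy 155 for Cfd, and was at most 0.17, without soy 149. All these values come from the same arrays, so the relations are not independent of each other.

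**Figure D4:**
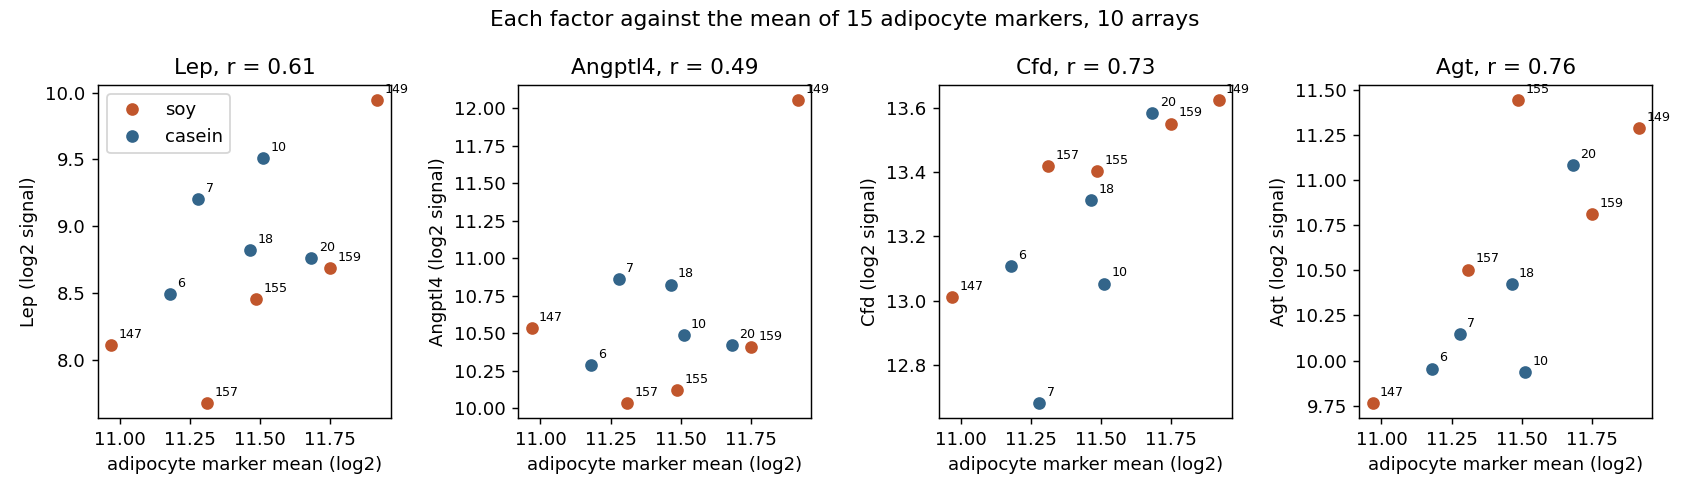
The log2 signal of each factor is plotted against the mean log2 signal of 15 adipocyte markers in the 10 arrays, coloured by diet and numbered. Agt (r = 0.76) and Cfd (r = 0.73) climb with the marker mean, and r is 0.61 for Lep and 0.49 for Angptl4. Soy 149 lies farthest right in each panel and is the highest array in each but that of Agt.

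The genes whose signals were most like each factor over the 10 arrays were chosen from 8148 probe sets by Pearson r and are given as a description. For Lep they were Elovl5, a fatty acid elongase (r = 0.95), Igfbp7, a secreted IGF-binding protein (0.92), and Dusp1, a MAP kinase phosphatase (0.92). For Angptl4 they were Rab3b, a small GTPase of vesicle release (0.88), Epb41l2, a cytoskeletal band 4.1 protein (0.88), and Col4a1, a basement membrane collagen (0.88). For Cfd they were Cdo1, cysteine dioxygenase (0.95), Scp2, a sterol carrier protein (0.92), and Marcks, a protein kinase C substrate (0.91). For Agt they were S100a1, a calcium-binding protein (0.90), Dctpp1, a nucleotide pyrophosphatase (0.90), and Fgfrl1, an FGF receptor without a kinase domain (0.89). Soy 149 was the highest soy array for all 3 genes of Angptl4 and above every casein array, as it was for Angptl4 itself. Rab3b had 364.5 there, against at most 250.7 in casein, Epb41l2 had 2077 against at most 1718 and Col4a1 had 8832 against at most 7017. This was not particular to Angptl4 and its genes. Soy 149 was also the highest soy array and above every casein array for Lep, Cfd, Elovl5, Igfbp7, Cdo1, Scp2, S100a1 and Fgfrl1. It was not both for Dusp1, Marcks and Dctpp1. Elovl5 had signals from 647.2 to 1399 in soy arrays, with the highest in soy 149, and from 801.5 to 1213 in casein arrays. Cdo1 ran from 7711 to 12342 in soy arrays and from 6952 to 10280 in casein arrays.

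Receptors and partners of the factors were examined as lists, with the brightest tested probe set for each gene. Other probe sets of a gene did not enter the counts. Over all 9520 tested probe sets the median difference was -0.010 on the log2 scale. Of these, 4505 differences were positive and 5015 negative, and 4.55% had an unadjusted p under 0.05 in limma. In leptin receptor signalling 9 of 12 genes were tested, 3 with a positive and 6 with a negative difference, a median of -0.043 and 0 past the adjusted threshold or an unadjusted p under 0.05. Lepr lay below the filter. Stat3, the transcription factor activated by the leptin receptor, had signals of 529.9 to 1084 in soy (median 844.7) and of 847.3 to 1394 in casein (median 1103). Its log2 difference was -0.38 ± 0.20 (SE), and -0.19 at its other probe set. Irs2, an insulin receptor substrate, was at 0.17 ± 0.13 (SE) and the phosphatase Ptpn11 at 0.12 ± 0.11 (SE).

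Of 15 genes of the renin-angiotensin system 7 were tested, 4 with a positive and 3 with a negative difference and a median of 0.0055. None passed the adjusted threshold, and 1, Mme, had an unadjusted p under 0.05. Mme, neprilysin, which degrades angiotensin and other peptides, had signals of 387.4 to 613 in soy (median 483.7) and of 600.9 to 947.7 in casein (median 618.8). The log2 difference was -0.49 ± 0.16 (SE; limma adjusted p = 0.98). Enpep, the aminopeptidase that trims angiotensin II, was at -0.26 ± 0.13 (SE) and at -0.35 at its other probe set. The receptor gene Agtr1a was at 0.0055 ± 0.16 (SE) and 0.083 at its probe sets, and the receptor-associated Agtrap at 0.089 ± 0.11 (SE). The probe sets of Ace, the converting enzyme, disagreed, with 0.096 ± 0.18 (SE) at the brighter and -0.52 ± 0.20 (SE) at the other.

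Of 14 genes of the alternative complement pathway and its control 5 were tested, 4 with a positive and 1 with a negative difference and a median of 0.24, with 0 past the adjusted threshold and 1 with an unadjusted p under 0.05. That gene, Masp1, encodes proteases of the lectin pathway, and in mouse and human a splice form of it activates the precursor of adipsin. Its signals were 210.7 to 302.8 in soy (median 235.9) and 136.3 to 217.5 in casein (median 156.4), so the diets overlapped. The log2 difference was 0.50 ± 0.17 (SE; limma adjusted p = 0.98), and 0.32 ± 0.30 (SE) at its other probe set. Properdin, from Cfp, which stabilises the convertase that adipsin helps to form, was at 0.24 ± 0.13 (SE). C3, the central complement component, was at 0.42 ± 0.23 (SE), with a dim signal of 126.9 to 287.5 in soy and 122.9 to 222.8 in casein. Cfb, the substrate of adipsin, had no tested probe set. Masp1 and C3 passed the filter on the mean of all arrays, 7.47, only through the soy arrays. Their log2 means were 7.92 and 7.78 in soy but 7.42 and 7.36 in casein, under the filter. Genes let in that way lean to a positive difference, so the signs and median of this list are a description only.

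Among 12 tested of 17 genes of lipoprotein lipase and its control, 9 differences were positive and 3 negative, with a median of 0.12, 0 past the adjusted threshold and 1 with an unadjusted p under 0.05. The median was 0.016 without soy 149, 0.073 without casein 7 and 0.061 after quantile normalization. Lpl itself, the target of Angptl4, had signals of 8370 to 13307 in soy (median 9932) and 7842 to 11355 in casein (median 8875), a log2 difference of 0.12 ± 0.14 (SE). Gpihbp1, which anchors the lipase to capillaries, had 1572 to 2562 in soy (median 1846) and 1321 to 1920 in casein (median 1443), a log2 difference of 0.33 ± 0.14 (SE; limma adjusted p = 0.98). Angptl8, which partners Angptl4 in fat, was at -0.91 ± 0.56 (SE), with a signal of 116.6 to 367.7 in soy (median 267.5) and 181.1 to 1845 in casein (median 274.5). Pcsk5, a proprotein convertase, was at 0.22 ± 0.17 (SE).

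Genes that share PPAR control or the fasting response with Angptl4 were tested for 11 of 17, 5 with a positive and 6 with a negative difference and a median of -0.018, with 0 past the adjusted threshold and 1 with an unadjusted p under 0.05. Pdk4, the kinase that shuts off pyruvate dehydrogenase in fasting, had signals of 194.4 to 382.6 in soy (median 234.9) and 139.4 to 211.3 in casein (median 193.7). The log2 difference was 0.44 ± 0.19 (SE; limma adjusted p = 0.98). The fatty acid oxidation genes Acadl and Hadha were at -0.28 ± 0.15 (SE) and -0.22 ± 0.12 (SE).

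Of 24 other adipose secreted factors 14 were tested, 5 with a positive and 9 with a negative difference and a median of -0.043, with 0 past the adjusted threshold or an unadjusted p under 0.05. Adipoq had no tested probe set. Apln, the peptide hormone apelin, had signals of 293.8 to 431.8 in soy (median 396.7) and 340 to 532.9 in casein (median 469.9). Its log2 difference was -0.31 ± 0.16 (SE) at the brighter probe set and -0.50 ± 0.21 (SE) at the other, which is not in the counts. The cytokine Mif was at -0.20 ± 0.13 (SE). Lcn2, lipocalin 2, was at -0.84 ± 0.61 (SE), with a wide range of 219.2 to 1368 in soy and 394.6 to 4097 in casein. Over the 6 lists 0 genes passed the adjusted threshold, beside 0% of all probe sets.

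**Figure D5:**
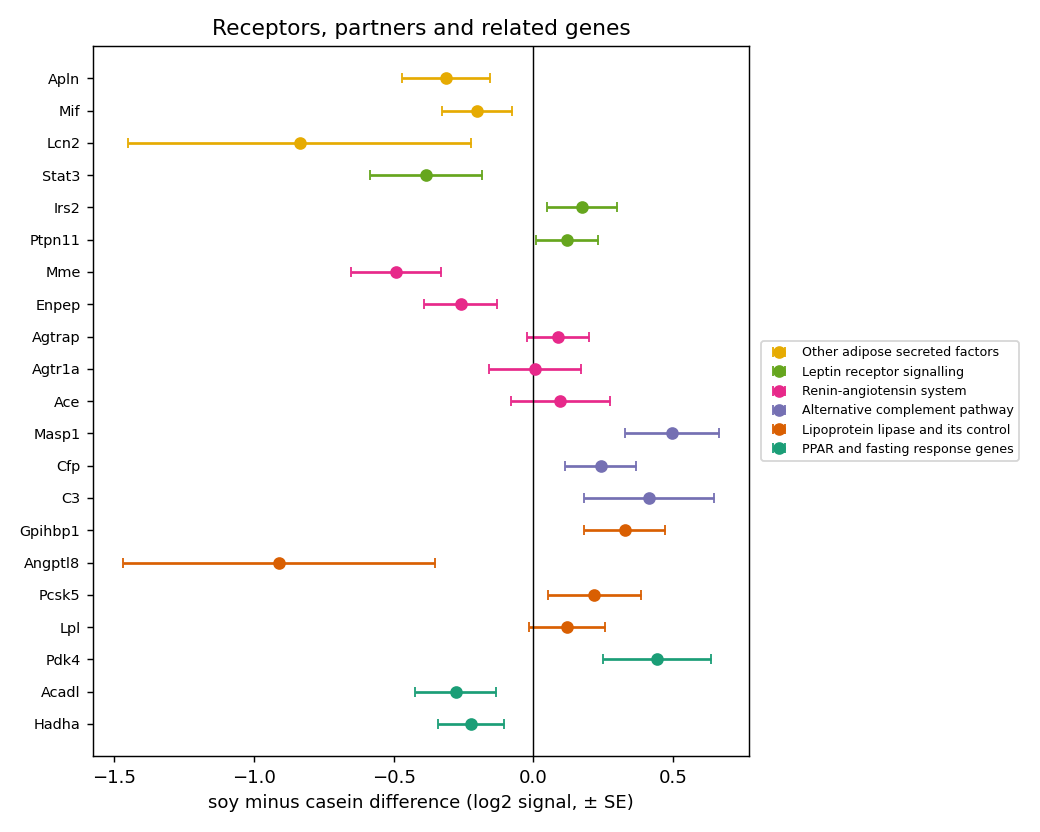
Soy minus casein differences in log2 signal (± SE) are shown for the named receptors, partners and related genes, coloured by list. Mme (-0.49) and Masp1 (0.50) lie farthest from 0 relative to their error, and Lcn2 and Angptl8 have the widest error bars.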

How the data were processed

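Total RNA of whole mammary glands at postnatal day 21 was labelled as biotin cRNA and hybridised to 1-colour arrays, per the labels' protocols, 5 arrays for soy and 5 for casein. The labels speak of RNA pools and replicate cRNA targets, so arrays may not be separate animals, and p-values then measure only a spread between samples that may be technical. The deposited values are the intensity (MAS5 signal) of each probe set, per the submitters' processing notes, with a version and settings not given in the sources used here. Every array had a 2% trimmed mean signal of 500.1, so the deposited scaling was kept. Detection calls were not used here.

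A floor of 1 was set on the signal before log2 was taken. Of 15923 probe sets, 57 controls were left out. The annotation named 1 gene for 12783 of the rest, several for 312 and none for 2771. Identifiers of 12748 were found in the reference gene table (GRCr8), and 0 symbols changed. Probe sets at or above the 40th percentile of mean log2 signal, 9520, were compared by diet with a two-sided test in limma 3.58.1 under R 4.3.3 (lmFit, then eBayes with trend on intensity; Benjamini-Hochberg over all of them, threshold 0.05). Single values were also tested with an exact two-sided permutation test over 252 assignments, whose smallest p is 0.0079. Correlations used 100000 random pairings, two-sided. Precision is limited by the number of arrays. The median SE of a difference was 0.144 in log2 units. The fit was tested on simulated data.

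The genes named are the members, the 3 most like each by Pearson r, and in each list up to 3 tested genes with the smallest p plus Lepr, Lpl, Agtr1a, Ace, C3, Cfb, Adipoq and Pdk4 where tested, and 1 further gene of the rule is not reported here. The members, lists and alternatives were chosen with earlier results of these data known. The alternatives were quantile normalization, median centring, log2 of signal plus 16, no filter, a filter at the 60th percentile, other variance models, array weights, covariates (actin ratio, adipocyte markers, muscle and lymphocyte markers), averaging over the probe sets of a gene and leaving out arrays.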

Additional observations from a re-analysis of the deposited data

Results flagged for a closer look

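Angptl4 in soy 149 had a signal of 4252.4, and its gap to the next soy array was 75.3% of the range of the soy arrays on the log2 scale, above the limit of 71% for a single outlying value among 5. Of 8 groups looked at (4 factors in 2 diets), this was the only one past the limit, while chance gives about 1 in 20 for a single group, or 0.4 of 8 groups. The next largest gap shares were 63.9% for Cfd in soy 147, 57.4% for Agt in casein 20 and 55.4% for Lep in soy 149.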

How the results depend on the processing

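With limma, 0 of the 4 factors and 0 probe sets passed the adjusted threshold with all arrays or under any of the 13 other settings and 10 settings without 1 array, while the number of probe sets with an unadjusted p under 0.05 ran from 272 without casein 18 to 843 with no filter. The sign of the Cfd and Agt differences held in all of these. The sign for Lep turned with muscle and lymphocyte markers as covariates (0.067). That for Angptl4 turned with array weights (-0.11), the adipocyte markers as a covariate (-0.0088), without the 4 muscle-rich arrays (-0.38) and without the 2 lymphocyte-poor arrays (-0.37). The cause was not tested. Without 1 array the log2 differences ran from -0.73 to -0.16 for Lep, -0.30 to 0.20 for Angptl4, 0.14 to 0.36 for Cfd and 0.28 to 0.70 for Agt. After quantile normalization r was 0.67 for the adipocyte markers with Cfd and 0.70 with Agt, 0.76 for Lep with Angptl4 and 0.75 for Cfd with Agt, all with an adjusted p of 0.065, and 0.22 for Lep with Cfd, which turned in sign. Without 1 array r ran from 0.63 to 0.88 for Lep and Angptl4, 0.74 to 0.88 for Cfd and Agt, 0.66 to 0.81 for the adipocyte markers with Cfd, 0.68 to 0.87 with Agt and -0.065 to 0.58 with Angptl4, -0.37 to 0.22 for Lep and Cfd, -0.13 to 0.38 for Lep and Agt, -0.54 to 0.33 for Cfd and Angptl4 and -0.40 to 0.47 for Agt and Angptl4. Without 1 array the list medians ran from -0.19 to 0.054 for leptin receptor signalling, -0.045 to 0.11 for renin-angiotensin, 0.17 to 0.34 for complement, 0.016 to 0.13 for lipoprotein lipase, -0.092 to 0.032 for PPAR and fasting genes and -0.12 to -0.020 for other secreted factors, so 3 of them have no settled sign. The renin-angiotensin median also turned with median centring (-0.016) and with probe sets of a gene averaged (-0.029). The complement median includes Masp1 and C3, which passed the filter only through the soy arrays, so its sign is a description only. Signal was not set against background, so values of dim genes such as C3 are not exact. No paired analysis was possible because the diets share no replicate number.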
